A study of Arabidopsis thaliana with 12 samples.

Results

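The plastid-encoded genes of Arabidopsis thaliana were taken as the rows of an RNA-seq comparison whose gene identifier begins with ATCG, which gave 133 of the 33557 genes in the table. The RNA came from rosette leaves of 4-week-old Columbia (Col-0) plants, which had 16 h light (22 °C) and 8 h dark (20 °C) per day. Wild type was compared with a mutant labelled atx3/4/5, which affects the putative H3K4 methyltransferases ATX3, ATX4 and ATX5, with 2 libraries per genotype. The mutant alleles, and whether the 2 libraries came from separate plants, are not given in the sources used here. For each gene the table holds 1 FPKM value per genotype (fragments scaled to gene length and depth), made by the authors from both libraries. No spread between libraries can therefore be given, each ratio below is a ratio of 2 such values, and the p-values may measure technical spread only. None of the 3 targeted genes was called lower in the values labelled atx3/4/5: ATX3 (AT3G61740) had an FPKM of 4.38 there and 4.17 in wild type, ATX4 (AT4G27910) 2.88 and 1.05, and ATX5 (AT5G53430) 3.76 and 3.93. None was called in either direction, and ATX4 was nearest (q = 0.0541, the authors' deposited table). An allele can disrupt a protein and leave RNA from the rest of its gene, so without the alleles these values do not check the labels. Every direction below, and the word mutant, rests on the authors' column labels. The ChIP-seq peak lists of the series were not used here.

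Chloroplasts keep a small genome of bacterial origin. It encodes core subunits of the photosynthetic complexes and the large subunit of Rubisco, together with part of the machinery that expresses them: ribosomal proteins, ribosomal and transfer RNAs and the subunits of a bacterial-type RNA polymerase. Neighbouring genes are often transcribed together and the long RNAs are then cut and trimmed. A phage-type RNA polymerase and the sigma factors that guide the bacterial-type one are made from nuclear genes. Plastid DNA carries no histones. Most mature plastid RNAs lack a long poly(A) tail. The labels name an mRNA library kit, and do not say whether poly(A) selection was part of it.

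More plastid genes were called lower than higher in atx3/4/5. Of the 133 genes 83 were tested in the authors' deposited table, and 14 of them were called lower and 0 higher at a q under 0.05. That was 16.9% of the tested plastid genes, where 5.40% of all 19021 tested genes were called lower and 4.92% higher in the authors' deposited table. The share called lower varied with gene length, as given with the length classes further on. With p under 0.05 and unadjusted, the authors' deposited table had 27 plastid genes lower (32.5%, against 13.7% of all tested genes) and 1 higher. Both genotypes reached an FPKM of 1 for 76 of the 133 genes, and 41 genes were listed at 0 in both. For the 76, the median log2 ratio of atx3/4/5 over wild type was -1.06, beside -0.06 for the 16448 genes of the whole table above the same floor. Below 0 lay 64 of the 76 ratios (84.2%), against 52.7% of all genes. More than 2-fold lower were 39 (51.3%), against 14.8% of all genes, and more than 2-fold higher was 1. All 133 lie on the plastid chromosome. In bulk leaf RNA, fewer plastids or green cells and less RNA per plastid cannot be told apart. Nor can either be told apart from a difference in how much plastid RNA the libraries captured, since poly(A) selection is not known.

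**Figure D1:**
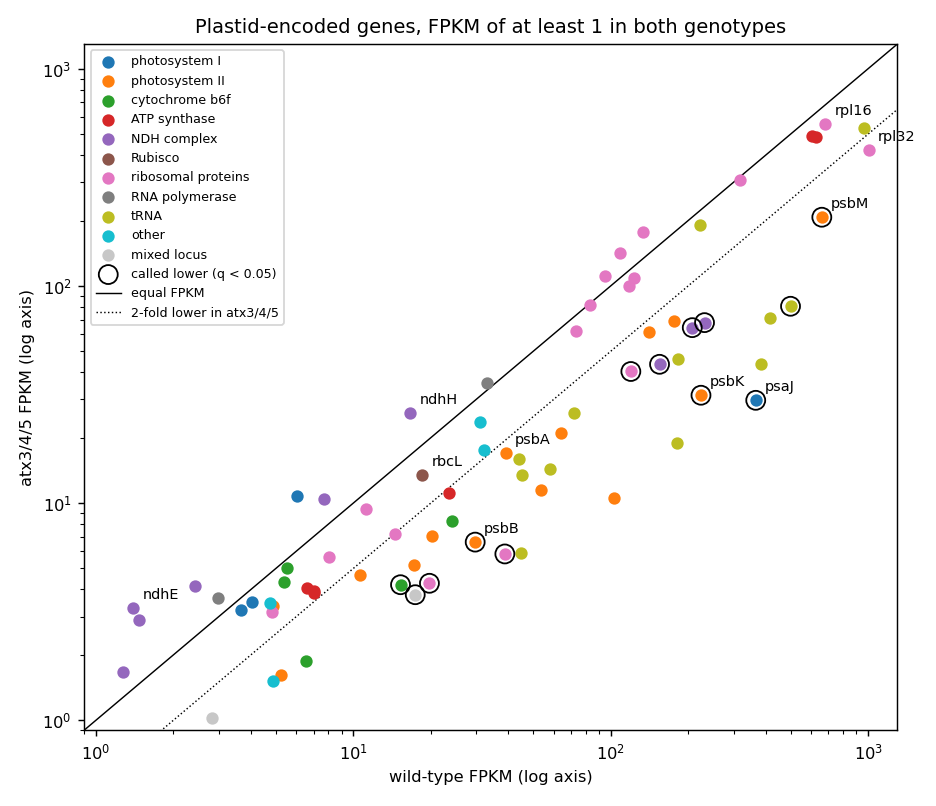
FPKM of the 76 plastid genes that reached an FPKM of 1 in each genotype, wild type on the x axis and atx3/4/5 on the y axis, both on log axes. Each point is 1 gene, coloured by functional group, and rings mark genes called lower in the authors' deposited table. Most points lie under the solid line of equal FPKM, and the ringed genes lie under the dotted line of 2-fold lower values.

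The called genes came from several complexes. PsaJ, a small subunit of photosystem I, had the largest fold among the called genes with a value above 0 in both genotypes. The genes psbK, psbM, psbL and psbB of photosystem II, petA of the cytochrome b6f complex, ndhJ, ndhK and ndhC of the NDH complex, the ribosomal protein genes rpl33, rps18 and rps14, 1 transfer RNA gene (trnS, ATCG00090) and ATCG01010, which shares a locus between ycf1 and ndhF, were the others called lower in the authors' deposited table. The smallest fold among the called genes was 2.97, for rps14. A larger fold without a call was found for 15 further genes, of which 12 had a locus of at most 200 bp and 7 encoded transfer RNAs. On either side of the threshold were psbL, (q = 0.0432) and psbI (q = 0.0577), both from the authors' deposited table.

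The members that could be read lay in the single-copy parts of the plastid genome. Of 97 genes there, 82 were tested. The inverted repeat, a stretch present in both orientations, holds 36 genes of the table, and only 1 of them was tested. In those 36 genes no FPKM exceeded 0.754 in either genotype, and 28 were listed at 0 in both. They include the ribosomal RNA genes, which every plastid uses: 1 copy of rrn16S was listed at 0.0380 in atx3/4/5 and 0.0313 in wild type. These values are not levels of those RNAs, and the labels do not say how reads with more than 1 possible position were counted.

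**Figure D2:**
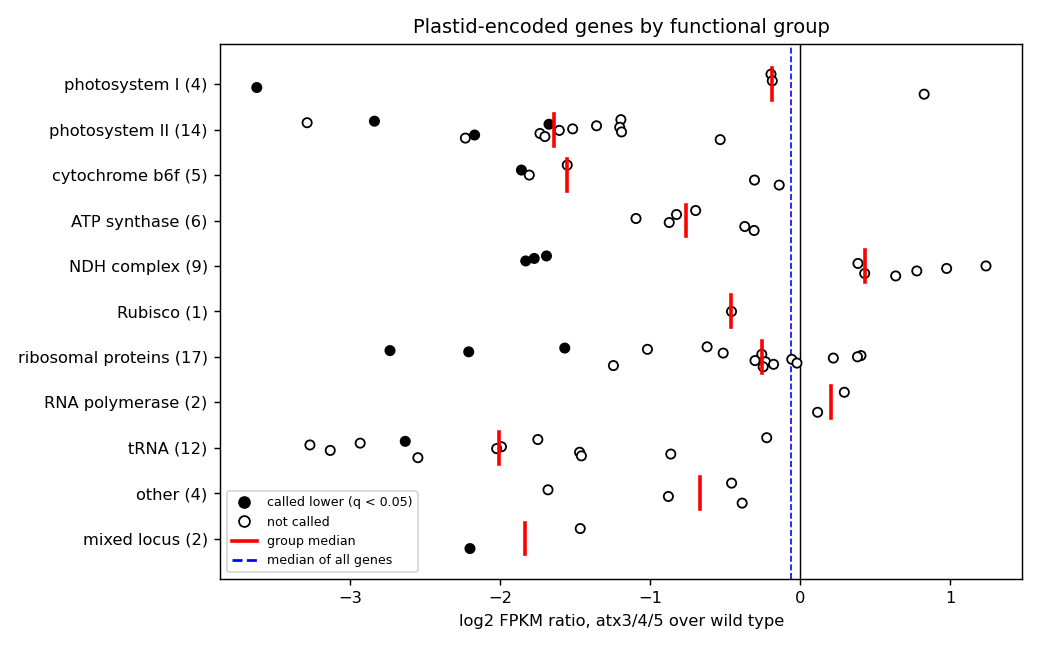
Log2 FPKM ratio of atx3/4/5 over wild type (x axis) for the 76 plastid genes that reached an FPKM of 1 in each genotype, by functional group with the number of genes in brackets. Each circle is 1 gene, filled where it was called lower in the authors' deposited table, the red bar is the group median and the dashed line the median of all genes, -0.06. All genes shown for photosystem II, cytochrome b6f, ATP synthase, Rubisco, tRNA, other and mixed locus lie below 0. NDH genes fall into 2 sets on opposite sides of 0.

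Photosystem II genes lay on the lower side throughout. This complex splits water and passes electrons to plastoquinone, and most of its core is made in the plastid. All 15 of its genes were tested, and 4 were called lower and 0 higher in the authors' deposited table. The 14 above the FPKM floor of 1 all had a ratio below 0, with a median log2 ratio of -1.64 and a range from -3.29 to -0.53. PsbK (plastid chromosome, 7017 to 7202 on TAIR10), a small membrane subunit, stood at an FPKM of 31.4 in the mutant and 224 in wild type. It was 7.15-fold lower (q = 0.00184, the authors' deposited table). Its neighbour psbI had 10.6 in atx3/4/5 and 103 in wild type, a 9.76-fold difference over a locus of only 111 bp that was not called. The inner antenna protein CP47 is encoded by psbB (72371 to 73897), whose FPKM was 6.61 in atx3/4/5 and 29.7 in wild type. That gene was 4.50-fold lower (q = 0.00184, the authors' deposited table). PsbM (28707 to 28811), a further small subunit, had the highest level of the group, at 207 in atx3/4/5 and 661 in wild type, 3.19-fold lower (q = 0.0366, the authors' deposited table). PsbL (63804 to 63920) was listed at 0 in atx3/4/5 and at 7.31 in wild type (q = 0.0432, the authors' deposited table).

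Other photosystem II genes, among them psbA, psbD and psbC, were not called. PsbA, which encodes the rapidly replaced reaction centre protein D1, had an FPKM of 17.1 in the mutant and 39.1 in wild type (q = 0.109, the authors' deposited table). The partner protein D2 and the antenna protein CP43 are encoded by psbD and psbC, which overlap. Their 2 identifiers share 1 locus and cannot be assigned by position. ATCG00270 had 68.6 in atx3/4/5 and 176 in wild type, and ATCG00280 had 61.4 and 141. Cytochrome b559 is formed by the products of psbE and psbF, whose FPKM values were 5.17 and 17.2 for psbE and 4.66 and 10.6 for psbF, in atx3/4/5 and wild type. The lowest fold in the group was that of psbH, a small phosphoprotein, at 3.35 in atx3/4/5 and 4.85 in wild type.

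Photosystem I genes lay on both sides of 0. The complex uses light to drive electrons from plastocyanin to ferredoxin. Of its 5 plastid genes 4 were tested, and psaI was listed at 0 in both genotypes. PsaJ (66929 to 67063) had an FPKM of 29.7 in the mutant and 366 in wild type, 12.3-fold lower (q = 0.00184, the authors' deposited table). In contrast, the genes of the large core proteins were close to equal: psaA had 3.23 in atx3/4/5 and 3.67 in wild type, and psaB had 3.52 and 4.03. PsaC, which carries iron-sulfur clusters at the reducing side, had 10.7 in atx3/4/5 and 6.05 in wild type, 1.77-fold higher and not called (q = 0.455, the authors' deposited table).

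Genes of the cytochrome b6f complex, which links the photosystems, differed among themselves. PetA (61657 to 62619), encoding cytochrome f, had 4.21 in atx3/4/5 and 15.2 in wild type, 3.63-fold lower (q = 0.00982, the authors' deposited table). For petB and petD, which encode cytochrome b6 and subunit IV, the FPKM was 4.35 and 5.00 in atx3/4/5 and 5.37 and 5.51 in wild type. The small subunit genes petG and petN had log2 ratios of -1.81 and -1.55 without a call, and petL was listed at 0 in atx3/4/5 and at 3.74 in wild type. The group median was -1.55 over 5 genes.

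ATP synthase genes had modest ratios. The authors' deposited table called none of the 6, none reached p = 0.05 unadjusted either, and the ratios ran from -1.09 to -0.31 with a median of -0.76. The genes atpE and atpB, encoding the epsilon and beta subunits, overlap and share 1 locus. They were among the most abundant plastid RNAs listed: ATCG00470 had 487 in atx3/4/5 and 629 in wild type, and ATCG00480 had 488 and 604. AtpA, atpF, atpH and atpI lie side by side elsewhere and had wild-type values from 6.60 to 23.6, with log2 ratios between -1.09 and -0.70. RbcL, the large subunit of the carbon-fixing enzyme Rubisco, had 13.5 in atx3/4/5 and 18.5 in wild type (q = 0.582, the authors' deposited table).

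The NDH genes lay on both sides of 0. Their products form a membrane complex that returns electrons from ferredoxin to plastoquinone around photosystem I. In the ndhJ to ndhC cluster all 3 genes were called lower in the authors' deposited table. NdhJ (48677 to 49153) had an FPKM of 64.2 in the mutant and 207 in wild type, a 3.23-fold difference. NdhK (49257 to 49934) had 67.7 and 231, a 3.42-fold difference. NdhC (50001 to 50363) had 43.5 and 155, a 3.55-fold difference. Their q-values were 0.00739, 0.0105 and 0.00831 in the authors' deposited table. A separate cluster, from ndhD through psaC, ndhE, ndhG, ndhI and ndhA to ndhH, had ratios above 0 for each of its 7 genes. Here ndhE had 3.29 in atx3/4/5 and 1.40 in wild type, the largest ratio above 0 among the 76 plastid genes above the floor, at 1.24. NdhG had 2.90 and 1.47, and ndhH had 25.9 and 16.6. No gene of this second cluster reached p = 0.05 unadjusted in the authors' deposited table, and the difference between the clusters was not tested. ATCG01010 had 3.78 in atx3/4/5 and 17.4 in wild type, 4.60-fold lower (q = 0.00184, the authors' deposited table). It lies in a locus (109405 to 112638) that holds ndhF and a part of ycf1, and its identifier could not be assigned to either by position. Both ndhB copies of the inverted repeat were listed at 0.

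**Figure D3:**
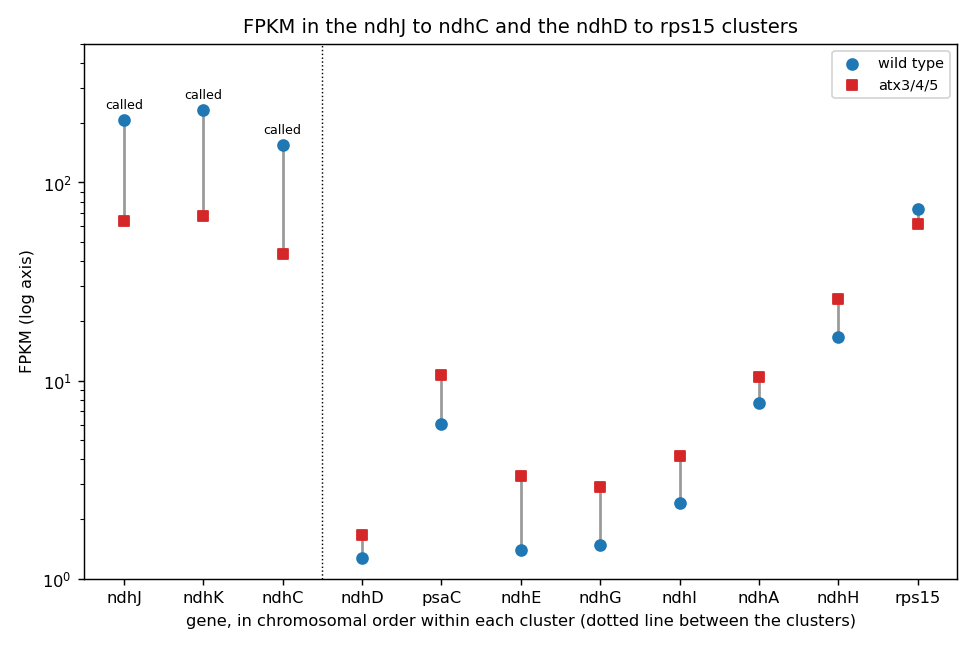
FPKM (log axis) of the genes of the ndhJ to ndhC cluster, left of the dotted line, and of the ndhD to rps15 cluster, right of it. Blue circles are wild type and red squares atx3/4/5, 1 value per genotype, and "called" marks a q under 0.05 in the authors' deposited table. The first 3 genes lie lower in the mutant and the 7 genes from ndhD to ndhH lie higher, while rps15 is 61.8 in atx3/4/5 and 73.3 in wild type.

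Ribosomal protein genes lay mostly below 0, and 3 were called. Of 24 members 17 were tested, and 3 were called lower and 0 higher in the authors' deposited table. The median log2 ratio of the 17 was -0.26, and the lowest was -2.73. Of the 17, 14 lay below 0 (82.4%, against 52.7% of all genes). More than 2-fold lower were 5 (29.4%, against 14.8% of all genes). The 9 adjacent genes from rpoA to rps19, all for ribosomal proteins except rpoA, had a median of -0.02. Rpl33 (67488 to 67688) had 5.83 in atx3/4/5 and 38.8 in wild type, 6.65-fold lower (q = 0.0121, the authors' deposited table). Rps18 (67917 to 68222), next to it, had 4.27 and 19.7, 4.62-fold lower (q = 0.0369, the authors' deposited table). Rps14 (36938 to 37240) had 40.3 and 120 (q = 0.0158, the authors' deposited table). Several of the highest plastid FPKM values belonged here. Rpl32, with a locus of only 159 bp, had the highest wild-type FPKM of all plastid genes, 1005 against 424 in atx3/4/5 (q = 0.0974, the authors' deposited table). Rpl16 had the highest value in atx3/4/5, 554 against 683 in wild type. When ratios were counted from the median of all genes, rpl14 turned from -0.06 to 0.01 and ATCG00810 from -0.02 to 0.04.

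The genes of the bacterial-type RNA polymerase, which transcribes most photosynthesis genes of the plastid, had no called member. RpoA, the alpha subunit gene, had 35.9 in atx3/4/5 and 33.1 in wild type. RpoB had 3.66 and 2.98, rpoC1 had 1.95 and 0.714, and rpoC2 had 0.844 and 0.496. All 4 ratios were above 0 and no gene was called in the authors' deposited table. RpoC1 was the 1 plastid gene higher at an unadjusted p under 0.05 there, with a p of 0.0166 and a q of 0.102.

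Transfer RNA genes had the lowest median ratio of the groups, with 1 call. Of 36 genes 12 were tested, the other 24 were listed at 0 in both genotypes, and 1 was called lower in the authors' deposited table. The called gene, trnS (ATCG00090; 7785 to 7872), lies next to psbI and had 80.6 in atx3/4/5 and 500 in wild type (q = 0.0113, the authors' deposited table). The 12 ratios ran from -3.27 to -0.22 with a median of -2.01. TrnE had 18.8 in atx3/4/5 and 181 in wild type, a 9.63-fold difference (q = 0.312, the authors' deposited table). TrnfM, the initiator, had 43.6 and 383 (q = 0.133, the authors' deposited table). ATCG00390, a tRNA gene of 73 bp listed without a symbol, had the highest FPKM of the group, 531 in atx3/4/5 and 965 in wild type. Reads of a transfer RNA and of a longer RNA that runs through its gene cannot be told apart in these values.

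No call was made for the remaining genes in the authors' deposited table. ATCG00040, in the locus that holds trnK and the splicing factor gene matK, had 1.02 in atx3/4/5 and 2.83 in wild type. ClpP, a subunit of the main stromal protease, had 17.5 in atx3/4/5 and 32.1 in wild type, and ycf1 (ATCG01130), whose product has been described as part of the protein import machinery, had 23.7 and 31.0. CemA, of the envelope, had 1.51 and 4.85, a log2 ratio of -1.68 (q = 0.0897, the authors' deposited table). Ycf3 and ycf4, assembly factors of photosystem I, had log2 ratios of -0.46 and -1.07, the latter with an FPKM of 0.802 in atx3/4/5. CcsA, for heme attachment to c-type cytochromes, had 0.743 and 2.42, and accD, a subunit of acetyl-CoA carboxylase, was not tested, at 0.312 and 0.537.

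Neighbouring genes had similar ratios. Over the 75 pairs of adjacent genes among the 76, the log2 ratios of the 2 neighbours correlated across genes. The Pearson r was 0.73 and the Spearman rho 0.72. On the same side of 0 lay 69 pairs, 9 of them above it. Since 64 of the 76 ratios were below 0, many pairs would share a side in any order. Without genes that share a locus the r was 0.76 over 67 pairs. Genes are not independent replicates, adjacent genes can share RNA molecules, and all values come from the same libraries. The psbK, psbI and trnS trio had ratios from -3.29 to -2.63. Further along, trnP (-2.55), psaJ (-3.62), rpl33 (-2.73) and rps18 (-2.21) stood together, and the next gene, rpl20, was at -0.51. Within the psbB cluster the ratio passed from -2.17 at psbB, -1.70 at psbT and -2.23 at psbN to -0.53 at psbH, -0.30 at petB and -0.14 at petD. PsbN is encoded on the opposite strand to its neighbours, and the labels do not say whether counting used strand. A step was also seen between rps14 (-1.57) and the adjoining psaB (-0.19) and psaA (-0.19). These runs were picked out after the values were seen.

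**Figure D4:**
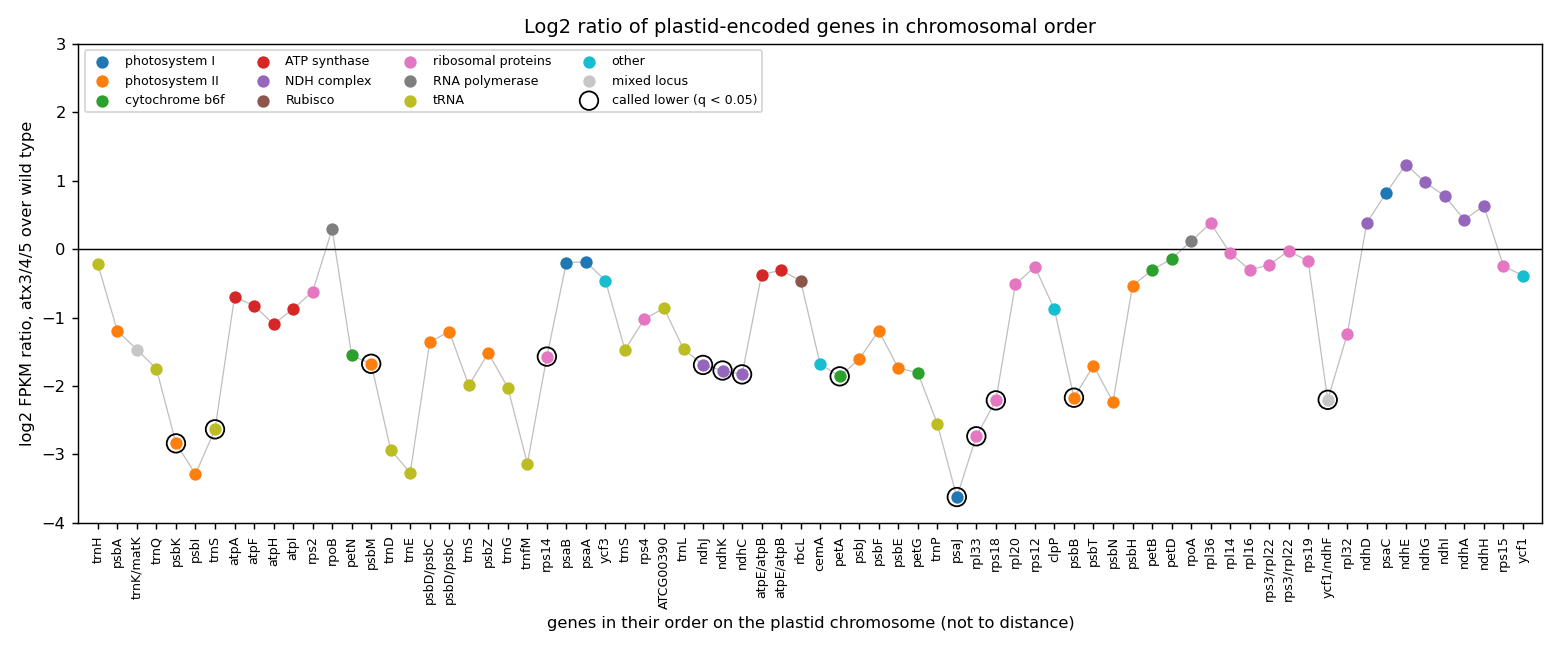
Log2 FPKM ratio of atx3/4/5 over wild type (y axis) for most of the 76 plastid genes that reached an FPKM of 1 in each genotype, in their order along the plastid chromosome, with equal spacing on the x axis. Points are coloured by functional group, rings mark genes called lower in the authors' deposited table, and the grey line joins the genes shown. Runs of low values around psbK and psaJ alternate with runs near 0, and the genes from ndhD to ndhH lie above 0.

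Ratios also varied with locus length, in plastid and nuclear genes alike. Length is the span of the locus, with any introns, so plastid and nuclear genes of a class can differ in transcript length. Where genes share a locus, the centred values use the span of the whole locus. Among genes that share no locus and passed the FPKM floor, the 25 plastid genes of at most 200 bp had a median log2 ratio of -1.75, against -0.57 for 54 nuclear genes of that size. Without transfer RNA genes the plastid median was -1.64 over 14 genes. Over 200 and up to 500 bp the medians were -0.52 for 16 plastid genes and -0.68 for 149 nuclear genes, and up to 1000 bp they were -0.95 for 10 and -0.64 for 1242. Over 1000 and up to 2000 bp they were -0.46 for 12 plastid and -0.33 for 4363 nuclear genes, and over 2000 bp -0.19 for 5 and 0.18 for 7700. Calls by length, among tested genes that share no locus, were as follows in the authors' deposited table. Up to 200 bp, 5 of 27 plastid genes were called lower, against 2.38% of nuclear genes. Over 200 and up to 500 bp it was 5 of 16 against 12.7%, and up to 1000 bp 2 of 12 against 14.3%. Over 1000 and up to 2000 bp it was 1 of 12 against 8.02%, and over 2000 bp 0 of 8 against 3.24%. The plastid calls thus lay mostly at 500 bp or less, and the longer classes hold few plastid genes. Counted from the nuclear median of the same length class, the median of the 76 plastid genes was -0.55, that of photosystem II genes -1.12 and that of NDH genes 0.72. The ribosomal protein genes changed side, from -0.26 to 0.16. The part of length in the plastid result was not tested.

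**Figure D5:**
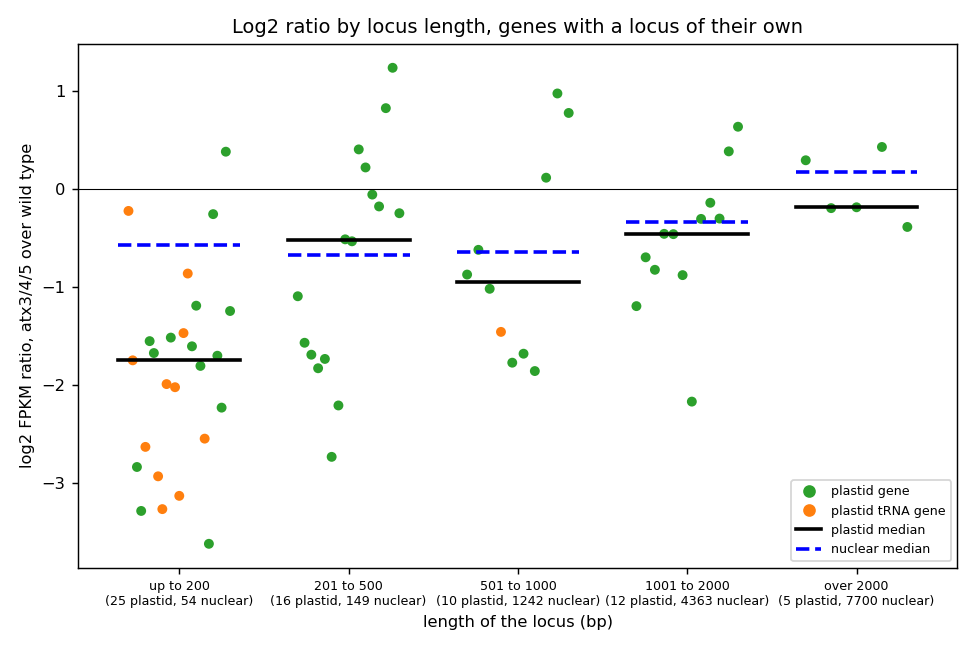
Log2 FPKM ratio of atx3/4/5 over wild type (y axis) for plastid genes that share no locus and passed the FPKM floor of 1, by locus length in bp (x axis, 5 classes with gene numbers). Points are single plastid genes (orange for tRNA genes), black bars their medians and dashed blue bars the medians of nuclear genes of the same class. The medians differ most in the shortest class, -1.75 for plastid and -0.57 for nuclear genes.

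Plastid genes made up a small share of the listed FPKM. Their FPKM values summed to 5057 in atx3/4/5 and 10122 in wild type, which is 0.705% and 0.921% of the FPKM of all genes. Whether poly(A) selection was used is not known, so these may not be the shares of plastid RNA in the leaf. Without transfer and ribosomal RNA genes the shares were 0.558% and 0.640%. The sum over all genes was itself 1.53-fold higher in wild type. One nuclear antenna gene, LHCB1.3, had a status for too many reads and was listed at 14877 in atx3/4/5 and at 0 in wild type, so its values are not levels. Of the other leaf markers, RBCS1A, the Rubisco small subunit, had 9297 in the mutant and 16497 in wild type, CA1 had 1457 and 4171, and RCA had 2165 and 2397. The 6 markers of root hairs, flowers and seeds summed to 1.12 and 0.643, with the root hair gene RHD6 at 0 in both.

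Read depth per library is not in the table and is unknown here, so no counting error can be given.

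Mitochondrial genes, which also come from an organelle, were called in the other direction only. Of 146 genes 29 were tested, and the authors' deposited table called 4 higher and 0 lower. Of all tested genes it called 4.92% higher and 5.40% lower. The 13 above the floor had a median log2 ratio of 0.87, and 11 of them were above 0. With no floor the median was 0.30. The difference between the organelles was not tested. The called genes were ATMG00020, ATMG00030, ATMG01380 and ATMG01390, with ATMG01380 at 1721 in atx3/4/5 and 241 in wild type. Names were matched for plastid genes only, so these 4 are given by identifier and what they encode was not looked up.

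Nuclear partner genes of the plastid subunits were called in 1 direction only. The list held 23 such genes of the photosystems, the cytochrome b6f complex, plastocyanin, ATP synthase and Rubisco. Of these, 4 were called lower and 0 higher in the authors' deposited table, where 5.40% of all tested genes were called lower. Nearly all had a locus over 500 and up to 2000 bp. Of nuclear genes that share no locus, 14.3% were called lower over 500 and up to 1000 bp. Over 1000 and up to 2000 bp it was 8.02%. The median log2 ratio of the 23 was -1.08, and -0.75 when counted from the nuclear median of the length class. The median wild-type FPKM of the 23 was 2940, against 12.1 for all genes above the floor. How much of the difference went with length or with level was not tested. The called genes PSAE1, PSAK, PSAL and PSAN are among the 9 photosystem I partners on the list, whose median was -1.60. None of the 4 photosystem II partners was called in the authors' deposited table, and their median was -1.03. PETE2, a plastocyanin gene named after its value was seen, was just outside the threshold (q = 0.0532, the authors' deposited table). FPKM values differed widely, with a wild-type FPKM of 16497 for RBCS1A and 18.5 for rbcL, which encode the small and large subunits of Rubisco. Most mature plastid RNAs lack a long poly(A) tail and poly(A) selection is not known, so these values do not compare RNA levels.

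Nuclear genes for plastid transcription were called in the other direction only. Of 20 measured, the authors' deposited table called 5 higher and 0 lower, where it called 4.92% of all tested genes higher. The 19 above the floor had a median log2 ratio of 0.53, and 0.35 when counted from the nuclear median of the length class. Nearly all had a locus over 2000 bp, where the nuclear median was 0.18. The part of length was not tested. RPOTp, the phage-type polymerase of plastids, had 9.94 in atx3/4/5 and 3.02 in wild type, 3.29-fold higher (q = 0.00447, the authors' deposited table). RPOTmp, found in mitochondria and plastids, had 2.52 and 0.447 (q = 0.00325, the authors' deposited table). Among the 12 proteins that associate with the bacterial-type polymerase, PAP3 (14.5 and 3.00), PAP5 (9.68 and 3.16) and PAP6 (25.9 and 8.52) were called higher in the authors' deposited table. The 6 sigma factor genes had no call, at a median of -0.01. Whether the lists differ from each other was not tested. These lists were chosen with earlier results of the same data known, and they are described by counts and medians only.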

How the data were processed

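RNA-seq values came from the authors' deposited comparison of atx3/4/5 with wild type, which gives 1 FPKM per gene and genotype from 2 libraries each. Its p-values and q-values were used as the authors deposited them. The submitters' processing notes name TopHat2 (2.0.10), Cufflinks (2.2.1) and the TAIR10 build. Genes with status OK were counted as tested (19021 of 33557, leaving 14535 not tested and 1 with too many reads), and those with q under 0.05 as called. Log2 ratios were computed without a pseudocount from the FPKM values, and medians over genes reaching an FPKM of 1 in each genotype (pandas 2.3.3, numpy 2.4.6). Simulated data with a planted shift checked the arithmetic of ratios and medians only, not length, counting or calls. The deposited log2 column was not used, since some of its cells hold an error mark.

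Gene names came from the RefSeq table of TAIR10.1, matched by position because it holds no ATCG identifiers: 114 genes matched at both ends and 4 at 1 end, 10 share a locus and are named in pairs, and 5 had no match. Positions are the authors', counted from 1. By rule, plastid genes above the floor or called were named, and nuclear genes of a list where called, of the highest wild-type FPKM or leaf and tissue markers. The plastid genes named below the floor (such as rpoC1, rpoC2, ycf4, ccsA and accD) were chosen after their values were seen. The members and lists were chosen with earlier results of these data known. Alternatives were other thresholds, floors, a pseudocount of 1, centring and leaving out gene classes. Some plastid genes enter the counts and medians but are not reported here by themselves. The number of unused columns of per-sample values was 0.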

Additional observations from a re-analysis of the deposited data

How the results depend on the processing

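The number of plastid genes called in the authors' deposited table went from 14 to 7 at a q under 0.01, to 28 at an unadjusted p under 0.05 (27 lower, 1 higher) and to 9 among genes over 200 bp. The median log2 ratio of plastid genes, -1.06 as reported, was -0.92 with a pseudocount of 1, -0.88 with no floor, -1.22 at an FPKM of at least 10, -0.99 when centred on all genes, -0.76 without tRNA and rRNA genes, -0.55 when centred on the nuclear median of the length class and -0.46 for genes over 200 bp. The plastid share in atx3/4/5 was 0.558% without tRNA and rRNA genes, 0.724% above the floor, 0.707% without mitochondrial genes and 0.720% without the gene with too many reads. In wild type it was 0.640% and 0.922% under the first and second of these. With a pseudocount of 1 the group medians were -0.64 (ATP synthase), 0.39 (NDH), -1.39 (cytochrome b6f), -0.61 (other genes), -0.15 (photosystem I), -1.48 (photosystem II), -0.24 (ribosomal proteins) and -1.96 (tRNA). When centred on the length class they were -0.30, 0.72, -0.98, -0.55, -0.37, -1.12, 0.16 and -1.44 in the same order, so ribosomal proteins changed side, while the cause of the other shifts was not tested. Without genes that share a locus they were -0.85 (ATP synthase), -1.69 (photosystem II) and -0.30 (ribosomal proteins), and with no floor the other genes came to -0.88. The mitochondrial median was 0.61 with a pseudocount, 0.30 with no floor and 1.04 centred on length, that of the nuclear partners -0.75 centred on length, and that of plastid transcription genes 0.50, 0.66 and 0.35. Of single genes, rpl14 turned to 0.0083 and ATCG00810 to 0.043 when centred on all genes. The length centring and the cut at 200 bp were chosen after seeing the data. No paired analysis was possible because the table holds 1 value per genotype, and leaving out a library was not run for the same reason. Read depth is unknown, so its limit on single genes could not be measured.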
